A study of Mus musculus with 24 samples.

Results

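Small RNA of early carcinomas and of normal mammary glands was compared at week 10, the third of the 4 time points sampled in a mouse model of breast cancer. The tumors came from 3 female MMTV-PyMT mice on the FVB background, heterozygous for a transgene that expresses the polyoma virus middle T antigen from the mouse mammary tumor virus promoter, which acts mainly in mammary epithelium. The controls were mammary glands of 3 female FVB mice of the same age without the transgene. The comparison was defined by the sample labels alone and uses 6 of the 24 libraries, each from snap-frozen tissue of a separate mouse. It asks which miRNAs differed between tumor and normal tissue once early carcinoma had formed. All 510 listed miRNAs were considered, of which 337 had at least 1 count at week 10 and 237 were tested.

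A miRNA is a short RNA that guides an Argonaute protein to messenger RNAs, mainly through its seed, the bases at positions 2 to 8, so that miRNAs with the same seed share many predicted targets. Many miRNAs are transcribed together as clusters, and several mark a cell type. The miR-200 family is a hallmark of epithelial cells, miR-143 and miR-145 are abundant in smooth muscle and other stromal cells, and miR-10a and miR-10b lie within clusters of Hox genes. The mammary gland holds a branched epithelium embedded in a fat pad with vessels, nerves and connective tissue, so a bulk library mixes all of these.

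The sequences below are the commonly used guide strands of the miRNAs on which the results turn, taken from the RefSeq table of build GRCm38.p6, with the seed in capitals. The deposited counts do not separate the strands of a hairpin, and 185 of the 237 tested names had a mature sequence in that table. The miR-200 family carries 2 seeds, and both groups of members were over-expressed. Counting positions from 1 at the 5′ end, miR-200b and miR-200a differ in the seed by U4C:
miR-200b-3p: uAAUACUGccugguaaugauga
miR-200c-3p: uAAUACUGccggguaaugaugga
miR-429-3p: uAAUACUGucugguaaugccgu
miR-200a-3p: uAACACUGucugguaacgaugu
miR-141-3p: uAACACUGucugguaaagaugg

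The next sequences are the over-expressed miR-31 and miR-92b, with the other members of the miR-92b seed group, and the abundant miR-148a with its relatives, of which miR-152 did not pass the test:
miR-31-5p: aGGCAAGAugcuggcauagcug
miR-92b-3p: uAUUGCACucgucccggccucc
miR-92a-3p: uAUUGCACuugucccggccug
miR-25-3p: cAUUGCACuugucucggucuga
miR-148a-3p: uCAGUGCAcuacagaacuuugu
miR-148b-3p: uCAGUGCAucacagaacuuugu
miR-152-3p: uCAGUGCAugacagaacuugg

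The paralogs miR-146b and miR-146a share a seed and differ by A18G and C21U, and miR-27b and miR-27a share a seed and differ by U19C. They are shown because the members of each pair differed from normal tissue in opposite directions:
miR-146b-5p: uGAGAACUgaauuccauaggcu
miR-146a-5p: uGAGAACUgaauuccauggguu
miR-27b-3p: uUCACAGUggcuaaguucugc
miR-27a-3p: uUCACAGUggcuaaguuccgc

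The last set holds miR-708, the miRNA with the largest decrease, and the Hox-cluster miRNAs. miR-10a and miR-10b differ by U12A, and miR-196a and miR-196b by A12C. Differences of 1 base between mature sequences mean that reads with an error can be assigned to the relative, so values of such pairs are less certain than those of unrelated miRNAs:
miR-708-5p: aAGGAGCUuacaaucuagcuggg
miR-10a-5p: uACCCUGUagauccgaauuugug
miR-10b-5p: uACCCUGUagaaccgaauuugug
miR-196a-5p: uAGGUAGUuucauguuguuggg
miR-196b-5p: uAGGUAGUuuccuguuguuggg

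In the mm9 annotation, the hairpin of miR-31 lies between genes at chr4:88556461-88556566 on the minus strand, and that of miR-92b lies between genes at chr3:89031038-89031120. The hairpins of miR-200b (chr4:155429790-155429859), miR-200a (chr4:155429005-155429094) and miR-429 (chr4:155428014-155428096) stand together on the minus strand in introns of Ttll10, where miR-429 also overlaps an exon of Gm13648. miR-148a lies between genes at chr6:51219811-51219909. miR-146b is in an intron of Tmem180 at chr19:46417252-46417360, miR-27b in an intron of 2010111I01Rik at chr13:63402008-63402104, and miR-27a between genes at chr8:86732571-86732657. miR-708 is in an intron of Odz4 at chr7:103397934-103398042, and miR-10b is intronic to Hoxd3 and Hoxd4 at chr2:74564127-74564194.

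The normal libraries held 3931375, 3888000 and 2901848 counts and the tumor libraries 2002832, 1081959 and 1479385, so the tumor libraries were the shallower. Between 296 and 300 miRNAs were detected in a normal library and between 274 and 286 in a tumor library. Levels are given as CPM, the count scaled to the size of the library, after TMM normalization, in the order of replicates 1, 2 and 3. A total of 3 counts, taken as the limit of detection, corresponded to 0.763 to 1.03 CPM in normal and 1.498 to 2.77 CPM in tumor libraries before that normalization and covers counting error only. The 100 miRNAs with counts that were not tested had at most 18 counts in any library and made up 0.00602% of the counts.

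Replicate 3 of both groups stood apart from replicates 1 and 2 in the same direction. Among the 237 tested miRNAs, 6 were more than 1 log2 unit above the mean of the other replicates in both groups: miR-1, miR-133a, miR-133b, miR-149, miR-483 and miR-486. Another 3 were more than 1 log2 unit below in both: miR-196a, miR-196b and miR-615. miR-133a, a miRNA of skeletal and cardiac muscle, was at 115, 37.6 and 16847 CPM in the tumors and at 157, 89.6 and 43379 CPM in the normal glands. miR-196a, which is encoded within Hox clusters, was at 113, 84.5 and 2.12 CPM in the tumors and at 529, 465 and 4.04 CPM in the normal glands. The labels do not say which gland was taken. Of these 9 miRNAs, miR-149, miR-483 and miR-615 were named after their values were seen. Results that rest on replicate 3 are therefore given also for replicates 1 and 2 alone, a choice made after the data had been seen, and with the replicate number as a block.

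**Figure D1:**
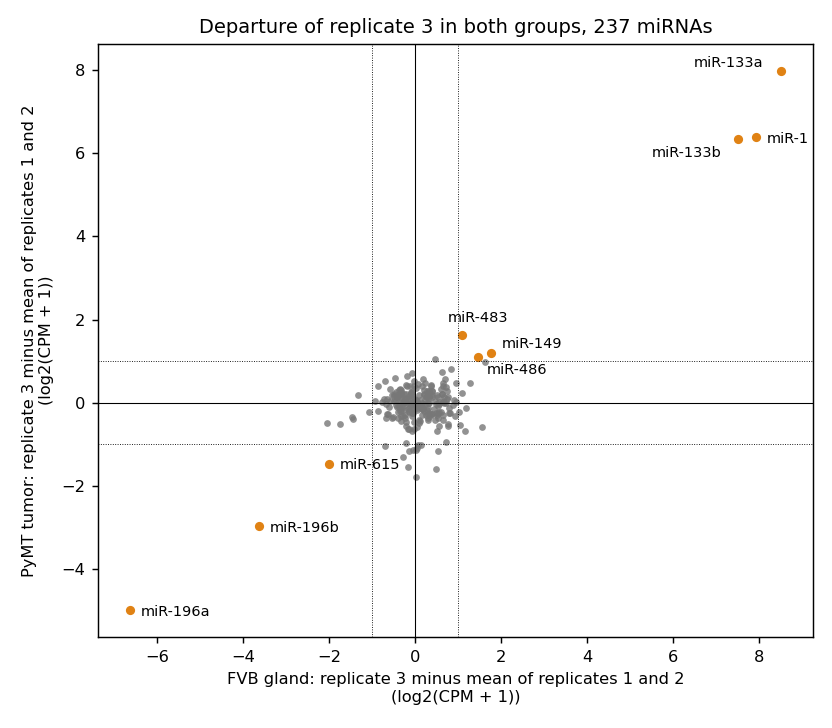
Departure of replicate 3 from the mean of replicates 1 and 2, in log2(CPM + 1), in FVB glands (horizontal axis) and PyMT tumors (vertical axis); each point is 1 of 237 miRNAs and dotted lines mark 1 log2 unit. The 6 miRNAs at the upper right and the 3 at the lower left, in orange, departed in both groups, and most others lay near 0 in both.

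Tumor and normal libraries differed widely. By the quasi-likelihood test of edgeR, whose Benjamini-Hochberg adjusted p-values are used throughout at a threshold of 0.05, 143 of the 237 tested miRNAs (60.3%) were differentially expressed, 78 of them over-expressed (32.9%) and 65 under-expressed (27.4%) in tumors. An unadjusted p-value under 0.05 was reached by 152. The tumor and normal libraries did not overlap for 158 miRNAs (66.7%), with all tumors above all glands for 84 (35.4%) and below for 74 (31.2%). The median log2 fold change, tumor against normal, was 1.44 for the over-expressed and -1.12 for the under-expressed miRNAs, and -0.15 over all 237. A change of at least 1 log2 unit was seen for 62 over-expressed and 38 under-expressed miRNAs, and of at least 2 for 21 and 3. In bulk tissue, fewer cells of a type and less of a miRNA per cell cannot be told apart, and this holds for every value below.

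The differences were as widespread without replicate 3. With replicates 1 and 2 alone, 148 miRNAs passed the test (62.4%), 33.3% higher and 29.1% lower in tumors, and these included 72 of the 78 over-expressed and 56 of the 65 under-expressed ones, with no called miRNA changing sign. With the replicate number as a block, 158 passed (66.7%), 33.8% higher and 32.9% lower, which included 78 of 78 and 63 of 65. When each library was left out in turn, 58 of the 78 and 35 of the 65 passed in all 6 fits. Under-expressed calls were the more sensitive, and 37 and 39 of them were made without tumor replicates 2 and 1.

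**Figure D2:**
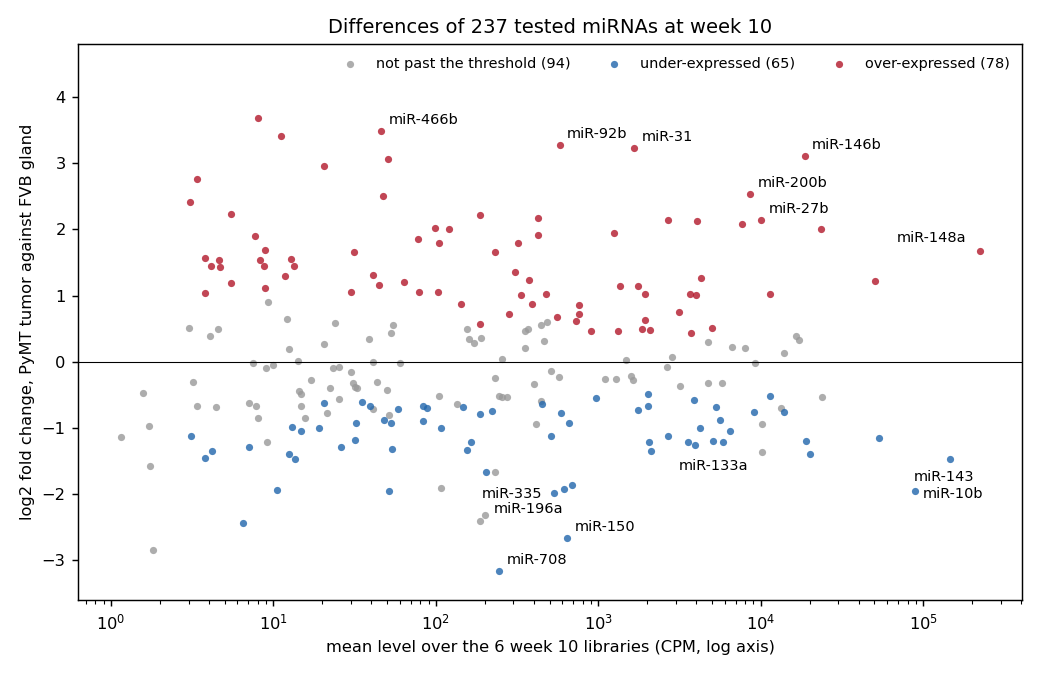
Log2 fold change of PyMT tumors against FVB glands at week 10 (vertical axis) against the mean CPM over the 6 libraries (horizontal log axis), 1 point per tested miRNA, in red if over-expressed (78), blue if under-expressed (65) and grey otherwise (94). Differences past the threshold occurred at all levels, with miR-92b, miR-31 and miR-146b high above 0 and miR-708 and miR-150 far below it.

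The most abundant miRNAs were among those that differed. miR-148a, which is abundant in milk-producing mammary epithelium, was at 335004, 305197 and 371283 CPM in the tumors and at 114796, 87933 and 115635 CPM in the glands. It was the most counted miRNA of each tumor library, with 30.7% to 35.5% of the counts, and was 3.18-fold higher than in the glands (log2 fold change 1.67, SE 0.16, edgeR adjusted p = 0.000251). miR-143 was at 66275, 95206 and 69657 CPM in the tumors and at 217428, 240919 and 180578 CPM in the glands, where it was the most counted miRNA with 18.5% to 24.7%. Its level was 2.76-fold lower in tumors (log2 fold change -1.47, SE 0.19, edgeR adjusted p = 0.000955), and the libraries of the groups did not overlap for either miRNA. Together, the over-expressed miRNAs held 59.6% to 62.2% of the counts in tumors and 18.1% to 22.3% in glands, and the under-expressed miRNAs 22.8% to 25.2% and 56.5% to 65.5%.

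Of all tested miRNAs, 32.9% were over-expressed and 27.4% under-expressed. Of the 10 most abundant miRNAs by mean CPM, miR-148a, miR-92a, miR-182 and miR-146b were over-expressed. miR-143, miR-10b, miR-10a, miR-126 and miR-125b were under-expressed. The tenth, miR-26a, was at 16248, 21650 and 19960 CPM in the tumors and at 35056, 28726 and 20046 CPM in the glands. Normal replicate 3 was as low as the tumors, and the difference of -0.53 log2 units did not pass the test (edgeR adjusted p = 0.0724). It passed with the replicate block (edgeR adjusted p = 0.0255).

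The miRNAs with the highest fold changes ranged from barely detected to abundant. miR-146b, whose paralog miR-146a restrains inflammatory signalling, was at 35090, 30535 and 34113 CPM in the tumors and at 3399, 2607 and 5601 CPM in the glands, 8.59-fold higher (log2 fold change 3.10, SE 0.29, edgeR adjusted p = 0.000225). miR-31, a miRNA studied for its roles in invasion and metastasis, was at 2745, 3112 and 3145 CPM against 351, 246 and 366 CPM, 9.35-fold higher (log2 fold change 3.23, SE 0.20, edgeR adjusted p = 3.68e-05). miR-92b was at 982, 1059 and 1097 CPM against 137, 96.6 and 91.6 CPM, 9.63-fold higher (log2 fold change 3.27, SE 0.21, edgeR adjusted p = 3.68e-05). In each of these 3, every tumor library was far above every normal library, and tumors varied little among themselves. miR-466a, miR-466b, miR-466e and miR-466c, described with their cluster below, had log2 fold changes of 3.68, 3.48, 3.41 and 2.96. miR-1983 (log2 fold change 3.06, SE 0.42) and miR-1965 (2.77, SE 0.53) complete the list with miR-200b. miR-1965 stayed at 2.82 to 8.26 CPM in tumors and 0.523 to 1.26 CPM in glands, close to the limit of detection.

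At the other end, miR-708 was at 35.3, 74.4 and 38.8 CPM in the tumors and at 491, 628 and 204 CPM in the glands. All tumors were below all glands, 8.94-fold lower by the fit (log2 fold change -3.16, SE 0.50, edgeR adjusted p = 0.0018). miR-150, a miRNA of mature lymphocytes, was at 145, 206 and 177 CPM against 1481, 1165 and 687 CPM (log2 fold change -2.66, SE 0.31, edgeR adjusted p = 0.000487). miR-335, which lies in an intron of the imprinted gene Mest (chr6:30691299-30691396, mm9), was at 257, 224 and 169 CPM against 953, 1276 and 330 CPM (log2 fold change -1.98, SE 0.47, edgeR adjusted p = 0.0095). For miR-708, miR-150 and miR-335 alike, normal replicate 3 was the lowest of the glands but still above each tumor. miR-10b, miR-145 and miR-130a are described with their families. miR-129 (log2 fold change -2.44, SE 0.41) was at 1.47 to 2.82 CPM in tumors and 7.41 to 14.3 CPM in glands, miR-215 (-1.94, SE 0.51) at 3.53 to 4.91 CPM and 7.08 to 24.8 CPM, and miR-139 (-1.66, SE 0.32) was at 87.6 to 110 CPM in tumors and 177 to 386 CPM in glands. miR-300, the last of the 10, had a log2 fold change of -1.47 (SE 0.42), and its call was lost without tumor replicate 1, 2 or 3 (edgeR adjusted p = 0.0704, 0.0506 and 0.0613).

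**Figure D3:**
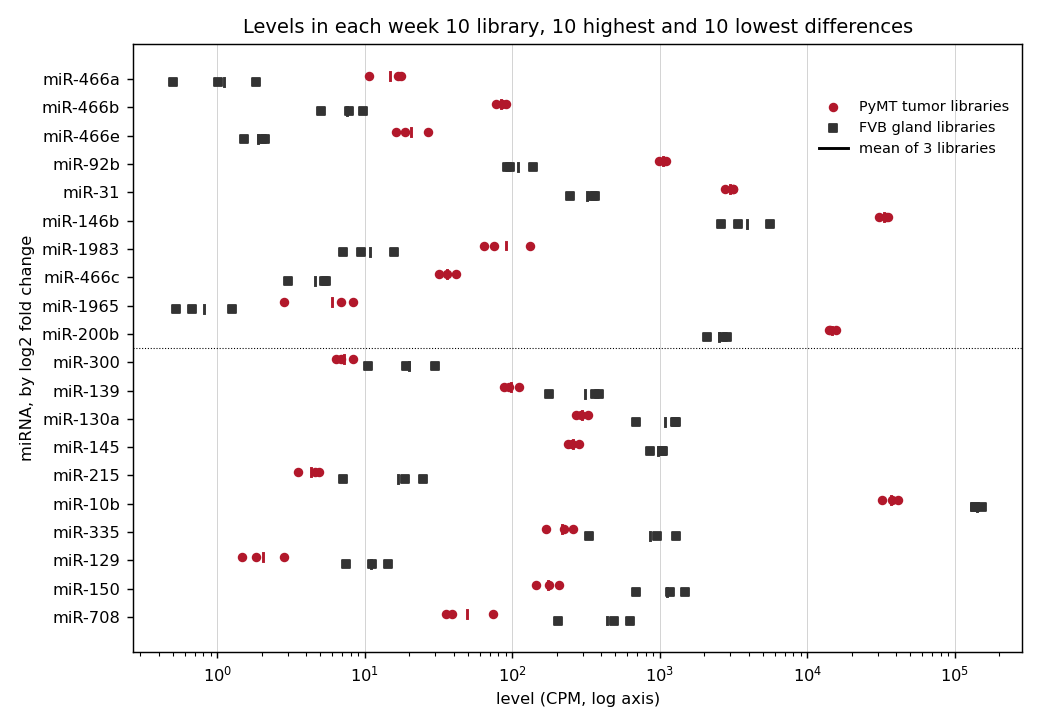
Level of the 10 most over-expressed (upper rows) and 10 most under-expressed miRNAs (below the dotted line) in each PyMT tumor (red circles) and FVB gland (dark squares), in CPM on a log axis; vertical bars mark the mean of 3 libraries. The libraries of the groups do not overlap in any row, which was a condition of the choice, and normal glands scatter more than tumors for miR-708, miR-335 and miR-215.

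Of the 15 tested miRNAs of the epithelial lists, 11 were over-expressed and 0 under-expressed, against 32.9% and 27.4% of all tested miRNAs. These lists hold the miR-200 family, the miR-183 cluster, miR-205, miR-203, miR-375, miR-342 and the miR-148 family. They were chosen with earlier results of these data known. All 5 members of the miR-200 family, which repress the transcription factors Zeb1 and Zeb2, were over-expressed, with log2 fold changes of 1.66 to 2.53 and a median of 2.14 against -0.15 over all tested miRNAs. miR-200b was at 14269, 14039 and 15663 CPM in the tumors and at 2680, 2077 and 2847 CPM in the glands, 5.78-fold higher (log2 fold change 2.53, SE 0.16, edgeR adjusted p = 3.68e-05). miR-429 was 4.42-fold, miR-200c 4.49-fold and miR-200a 3.87-fold higher, and in all 5 the tumors lay above the glands without overlap. The family took 2.14% to 2.22% of the counts in tumors and 0.354% to 0.496% in glands.

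All 3 members of the cluster of miR-183, miR-96 and miR-182, first known from sensory epithelia, were over-expressed as well, against 32.9% of all tested miRNAs. miR-182 was at 38454, 40786 and 32693 CPM in the tumors and at 8840, 8164 and 11018 CPM in the glands, 3.99-fold higher (log2 fold change 1.998, SE 0.17, edgeR adjusted p = 0.000126). miR-183 was 4.22-fold and the less abundant miR-96 3.46-fold higher. miR-375, found in luminal epithelium and endocrine cells, was at 116, 251 and 212 CPM against 53.8, 48.4 and 40.8 CPM (log2 fold change 2.01, SE 0.32, edgeR adjusted p = 0.002). miR-342, listed with it, had a log2 fold change of 0.55 that did not pass (edgeR adjusted p = 0.0949). It passed with replicates 1 and 2 alone (0.78, edgeR adjusted p = 0.0057).

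The others gave no call. miR-205, characteristic of basal and myoepithelial cells, was at 6250, 4903 and 4461 CPM in the tumors and at 3366, 3144 and 6230 CPM in the glands. Normal replicate 3 was as high as the highest tumor, and the log2 fold change of 0.29 did not pass (edgeR adjusted p = 0.38). With replicates 1 and 2 alone it was 0.75 (edgeR adjusted p = 0.00476). miR-203, a miRNA of stratified epithelia, was at 1039, 1072 and 879 CPM against 1428, 1276 and 866 CPM and did not pass either (log2 fold change -0.26, edgeR adjusted p = 0.305). Epithelial miRNAs were thus counted in all 6 libraries, whose labels name mammary gland as the tissue.

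Within the miR-148 family, whose members share a seed, miR-148a and miR-148b were over-expressed and miR-152 was not. miR-148b was at 5910, 4762 and 5194 CPM in the tumors and at 2939, 2459 and 2495 CPM in the glands (log2 fold change 1.01, SE 0.14, edgeR adjusted p = 0.00123). miR-152 was at 508, 477 and 591 CPM against 683, 569 and 594 CPM (log2 fold change -0.23, edgeR adjusted p = 0.229).

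All 6 members of the miR-17~92 cluster, a target of Myc that promotes proliferation and survival, were over-expressed, with log2 fold changes from 0.68 for miR-19b to 2.03 for miR-18a, against 32.9% of all tested miRNAs over-expressed. Its most abundant member, miR-92a, was at 67416, 79234 and 65897 CPM in the tumors and at 30186, 28494 and 32555 CPM in the glands, 2.33-fold higher (log2 fold change 1.22, SE 0.13, edgeR adjusted p = 0.000442). miR-17 was 2.35-fold and miR-19a 3.49-fold higher. The tumors lay above the glands in all 6 members. The call of miR-19b was lost without normal replicate 2 (log2 fold change 0.51, edgeR adjusted p = 0.075). Counts of miR-92a and miR-19b may also include reads of their identical copies on chromosome X.

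The related miR-106b~25 cluster, which lies within the replication gene Mcm7, showed smaller differences of 0.44 to 0.47 log2 units, although tumors and glands did not overlap in any member. miR-25 and miR-93 passed the test (edgeR adjusted p = 0.0249 and 0.0417) and miR-106b did not (edgeR adjusted p = 0.0561). Without replicate 3 of either group, miR-106b passed (edgeR adjusted p = 0.0256) and miR-25 did not (edgeR adjusted p = 0.0825). Both calls were fragile. That of miR-25 held only without tumor replicate 3 among the 6 fits that left out a library, and that of miR-93 only without normal replicate 3, with adjusted p-values of 0.0544 to 0.0954 and 0.0557 to 0.151 in the other fits.

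Of the 5 tested members of the miR-15 and miR-16 family, known to restrain the cell cycle, 3 were under-expressed and 1 over-expressed, against 27.4% and 32.9% of all tested miRNAs. The under-expressed members were miR-195 (log2 fold change -1.25), miR-497 (-0.78) and miR-16 (-0.58). miR-195 was at 2435, 2272 and 2270 CPM in the tumors and at 6413, 5711 and 4474 CPM in the glands (SE 0.16, edgeR adjusted p = 0.000886). The tumors were nearly alike and all below the lowest gland. miR-15b went the other way (log2 fold change 0.57, edgeR adjusted p = 0.0391), but its call was lost whichever of the 6 libraries was left out, with adjusted p-values of 0.0553 to 0.148. miR-15a had a log2 fold change of -0.15 and did not pass. miR-322 was at 0 in the deposited counts of all 6 libraries, which is not read as absence from the tissue.

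Of the 8 tested let-7 miRNAs, which repress growth and pluripotency genes, 3 were under-expressed and 0 over-expressed, against 27.4% and 32.9% of all tested miRNAs. let-7a was at 6386, 6826 and 6932 CPM in the tumors and at 12233, 11646 and 10131 CPM in the glands (log2 fold change -0.76, SE 0.12, edgeR adjusted p = 0.0022). let-7i had a log2 fold change of -0.69, which did not pass with replicates 1 and 2 alone (-0.52, edgeR adjusted p = 0.0539), and let-7d of -0.48, the latter lost without tumor replicate 1 or 2 or normal replicate 1 (edgeR adjusted p = 0.0659, 0.076 and 0.0611). The most abundant member, let-7c, was at 13425, 15025 and 15038 CPM against 14699, 12823 and 12353 CPM, and its log2 fold change of 0.13 did not pass (edgeR adjusted p = 0.396). let-7b and let-7c were the only members with values above 0, and let-7b changed sign without replicate 3. The sequences of let-7 miRNAs differ at few bases, so their counts may be partly exchanged.

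In the miR-34 family, effectors of p53, miR-34b (log2 fold change -0.93, edgeR adjusted p = 0.0168) and miR-34c (-0.68, edgeR adjusted p = 0.0298), which come from a common transcript, were under-expressed. miR-34a was at 171, 162 and 210 CPM in the tumors and at 131, 144 and 107 CPM in the glands, above them without overlap, but did not pass (log2 fold change 0.50, edgeR adjusted p = 0.0824). The call of miR-34c held only without normal replicate 3 when libraries were left out in turn, and that of miR-34b was lost without tumor replicate 1 or 3 (edgeR adjusted p = 0.0527 and 0.0557). Of miR-26a, miR-26b, miR-101a and miR-101b, all with values below 0, miR-101a was under-expressed (log2 fold change -0.52, edgeR adjusted p = 0.0129). In the fit of replicates 1 and 2 alone, miR-26a (-0.79, edgeR adjusted p = 0.00944) and miR-26b (-0.56, edgeR adjusted p = 0.0325) passed.

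Of 5 miRNAs often described as oncogenic or hypoxia-induced, 3 were over-expressed, against 32.9% of all tested miRNAs. miR-31 is given above. miR-9 was at 85.9, 126 and 29.7 CPM in the tumors and at 12.8, 15.3 and 14.2 CPM in the glands (log2 fold change 2.51, SE 0.49, edgeR adjusted p = 0.00468). The glands were nearly alike while the tumors spread widely, with replicate 3 the lowest. In a fit of all 24 libraries the difference of miR-9 at week 10 did not pass (log2 fold change 2.51, SE 1.31, edgeR adjusted p = 0.104). miR-210, a target of hypoxia-inducible factor, was at 433, 509 and 571 CPM against 283, 231 and 310 CPM (log2 fold change 0.88, SE 0.19, edgeR adjusted p = 0.00698). miR-21, over-expressed in many cancers, was at 21814, 17344 and 17804 CPM in the tumors and at 15657, 14430 and 15501 CPM in the glands. The groups did not overlap, yet the log2 fold change of 0.32 did not pass (edgeR adjusted p = 0.0724). miR-155 had a log2 fold change of 0.19 and did not pass.

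**Figure D4:**
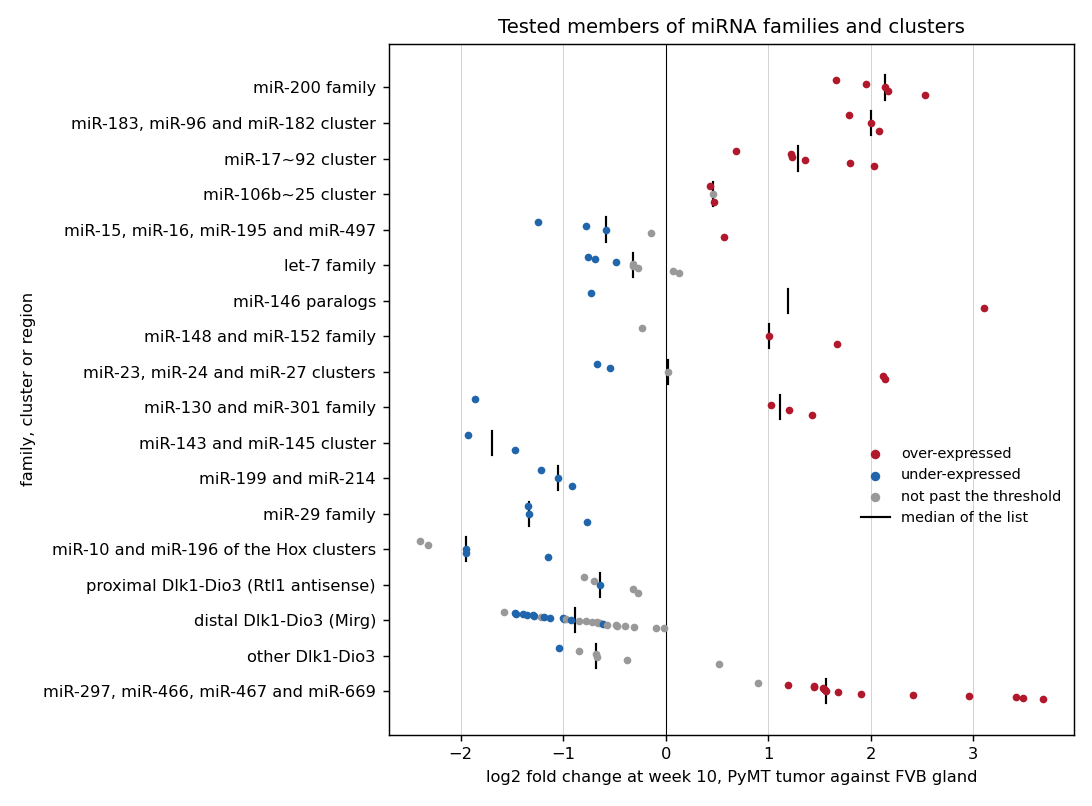
Log2 fold change at week 10 (horizontal axis) of the tested members of 18 families, clusters and regions (rows); each point is a miRNA, red if over-expressed, blue if under-expressed and grey if not past the threshold, and black bars mark the median of each row. The rows of the miR-200 family, the miR-182 cluster and the miR-17~92 cluster lie wholly to the right of 0 and those of miR-143, miR-199 and miR-29 wholly to the left, while the rows of miR-146, miR-23 and miR-130 hold members on both sides.

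Several close relatives differed in opposite directions. miR-146a was at 1378, 1004 and 1562 CPM in the tumors and at 1837, 1829 and 2857 CPM in the glands, all tumors below all glands (log2 fold change -0.73, SE 0.24, edgeR adjusted p = 0.0357), while miR-146b was 8.59-fold higher. miR-146b exceeded miR-146a in all 6 libraries, and by far more in the tumors. The call of miR-146a was lost without tumor replicate 1 or 2 or normal replicate 3 (edgeR adjusted p = 0.0733, 0.108 and 0.0737). Its log2 fold change stayed between -0.91 and -0.54 in the 6 fits.

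The paralogous clusters of miR-23, miR-27 and miR-24 were likewise divided. From the cluster on chromosome 13, miR-27b was at 16298, 17079 and 15923 CPM in the tumors and at 3554, 3614 and 4028 CPM in the glands (log2 fold change 2.14, SE 0.12, edgeR adjusted p = 3.68e-05), and miR-23b (chr13:63401780-63401876, mm9) was at 6622, 6876 and 6120 CPM against 1568, 1553 and 1385 CPM (log2 fold change 2.12, SE 0.13, edgeR adjusted p = 3.68e-05). The differences were 4.40-fold and 4.35-fold, with little spread in either group. From the cluster on chromosome 8, miR-23a was at 1475, 1592 and 1590 CPM against 2976, 2585 and 1854 CPM (log2 fold change -0.67, SE 0.19, edgeR adjusted p = 0.0193). miR-27a was at 664, 836 and 860 CPM against 1288, 1206 and 955 CPM (log2 fold change -0.55, SE 0.18, edgeR adjusted p = 0.0312). The call of miR-23a was lost without tumor replicate 1 or 2 or normal replicate 2 (edgeR adjusted p = 0.0611, 0.056 and 0.0563), and that of miR-27a held only without normal replicate 3, with adjusted p-values of 0.0528 to 0.0971 in the other 5 fits. miR-24, whose identical copies lie in both clusters, was at 1395, 1518 and 1563 CPM against 1421, 1516 and 1456 CPM (log2 fold change 0.03, edgeR adjusted p = 0.856).

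The same was seen in the miR-130 and miR-301 family. miR-130a was at 292, 328 and 272 CPM in the tumors and at 1257, 1286 and 693 CPM in the glands (log2 fold change -1.86, SE 0.26, edgeR adjusted p = 0.00111). miR-301a (log2 fold change 1.02, edgeR adjusted p = 0.002), miR-130b (1.21, edgeR adjusted p = 0.00441) and the rare miR-301b (1.43, edgeR adjusted p = 0.0296) were over-expressed. The summed share of the family was 0.0884% to 0.110% of the counts in tumors and 0.110% to 0.169% in glands. The call of miR-301b was lost without tumor replicate 1 or 2 or normal replicate 1 (edgeR adjusted p = 0.0659, 0.0966 and 0.0635).

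All 4 members of the miR-181 family were over-expressed (32.9% of all tested miRNAs), with log2 fold changes of 0.71 to 1.14. miR-181a was at 5156, 4785 and 4687 CPM in the tumors and at 2439, 2314 and 2461 CPM in the glands (SE 0.11, edgeR adjusted p = 0.000465). The call of miR-181d held only without normal replicate 3 when libraries were left out in turn, with adjusted p-values of 0.0613 to 0.119 otherwise. Of the 5 miR-30 miRNAs, miR-30c (log2 fold change 0.76), miR-30e (0.62) and miR-30a (0.51) were over-expressed, and miR-30d (0.40) and miR-30b (-0.33) did not pass. Leaving out normal replicate 2 ended all 3 of these calls (edgeR adjusted p = 0.075, 0.0521 and 0.167), leaving out normal replicate 3 those of miR-30c and miR-30a (0.0506 and 0.15), and leaving out tumor replicate 2 or 3 that of miR-30a (0.0726 and 0.0959). The log2 fold change of miR-30a was 0.28 with replicates 1 and 2 alone (edgeR adjusted p = 0.304).

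Of the 33 tested miRNAs of the lists grouped under stroma, 16 were under-expressed and 10 over-expressed, against 27.4% and 32.9% of all tested miRNAs. The other 7 did not pass. This broad group includes the miR-130, miR-181 and miR-30 families above, from which all of its over-expressed miRNAs came. miR-126, given here too, is not among the 33. With miR-143, the co-transcribed miR-145 was at 283, 252 and 237 CPM in the tumors and at 1043, 1035 and 854 CPM in the glands (log2 fold change -1.92, SE 0.16, edgeR adjusted p = 0.000126). miR-126, made in endothelial cells from within Egfl7, was at 10360, 11430 and 11610 CPM against 32435, 34673 and 20276 CPM (log2 fold change -1.39, SE 0.21, edgeR adjusted p = 0.00161). The fibroblast-linked miR-199a, miR-199b and miR-214 had log2 fold changes of -1.05, -1.22 and -0.92, and all 3 passed. miR-199a and miR-199b have near-identical mature strands, so their counts may be partly shared. In each of these 6 miRNAs, all tumors were below all glands.

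The miR-29 family, whose known targets include collagens, was under-expressed in all 3 members, against 27.4% of all tested miRNAs. miR-29a was at 9565, 10123 and 11140 CPM in the tumors and at 22675, 16377 and 13331 CPM in the glands (log2 fold change -0.76, SE 0.20, edgeR adjusted p = 0.0161). miR-29c was at 888, 1280 and 1417 CPM against 3408, 2840 and 2865 CPM (log2 fold change -1.35, SE 0.20, edgeR adjusted p = 0.0015), and miR-29b had a log2 fold change of -1.34. The call of miR-29a was lost without tumor replicate 1 or 2 (edgeR adjusted p = 0.0556 and 0.0544). Of the miR-99, miR-100 and miR-125 families, miR-125b (-1.20), miR-100 (-1.12) and miR-99a (-0.88) were under-expressed, while miR-99b (0.21) and miR-125a (-0.02) did not pass. Of the neighbours miR-132 and miR-212, miR-132 had a log2 fold change of -0.66 (edgeR adjusted p = 0.0287) and miR-212 of 0.00. The call of miR-132 was lost without tumor replicate 2 or 3 or normal replicate 1 (edgeR adjusted p = 0.0982, 0.0844 and 0.0685).

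Of 5 tested miRNAs of the Hox clusters, 3 were under-expressed, against 27.4% of all tested miRNAs. miR-10b was at 37174, 31956 and 41154 CPM in the tumors and at 152681, 137559 and 135844 CPM in the glands, 3.86-fold lower (log2 fold change -1.95, SE 0.15, edgeR adjusted p = 8.48e-05). miR-10a was at 30570, 32345 and 36995 CPM against 75448, 75445 and 70674 CPM, 2.22-fold lower (log2 fold change -1.15, SE 0.13, edgeR adjusted p = 0.000465). Replicate 3 did not stand apart in either, and the groups did not overlap. The Hox list of 5 miRNAs took 6.49% to 7.48% of the counts in tumors and 21.1% to 22.3% in glands.

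The other members of that list depended on how replicate 3 was treated. miR-196a and miR-196b had log2 fold changes of -2.32 and -2.40 and did not pass (edgeR adjusted p = 0.223 and 0.0824). In replicate 3 both the tumor and the gland were below all other libraries of either group. miR-196b was at 91.3, 77.1 and 9.89 CPM in the tumors and at 484, 423 and 35.4 CPM in the glands, so that each tumor was below the gland of the same replicate number. With the replicate block the log2 fold changes were -2.22 and -2.29 (edgeR adjusted p = 5.32e-06 and 9.2e-07), and with replicates 1 and 2 alone -2.34 and -2.45 (edgeR adjusted p = 5.43e-15 and 1.03e-15). The latter p-values rest on 2 libraries per group, kept after replicate 3 had been seen to stand apart. They do not measure the spread between mice, which for miR-196a ran from 1.89 to 663 CPM among the glands of week 6. miR-615 was at 25, 29.4 and 9.18 CPM against 115, 104 and 26.3 CPM (log2 fold change -1.95, SE 0.63, edgeR adjusted p = 0.032), with the groups overlapping. Its call held without normal replicate 3 and was lost without any other library (adjusted p-values of 0.0551 to 0.0735).

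The imprinted Dlk1-Dio3 region of chromosome 12 encodes many miRNAs expressed from the maternal chromosome and best known in embryo, brain and stem cells. Its distal cluster, processed from the Mirg transcript, had 28 tested members, of which 12 were under-expressed and 0 over-expressed (27.4% and 32.9% of all tested miRNAs), with a median log2 fold change of -0.89 and a range from -1.58 to -0.02. All tumors were below all glands for 17 of the 28, as for 31.2% of all tested miRNAs. The 28 members share a transcript and are not 28 separate measurements. Their levels were low, and the cluster took 0.0403% to 0.0437% of the counts in tumors and 0.0506%, 0.0738% and 0.0941% in the glands of replicates 1, 2 and 3.

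Single members showed this spread of the glands. miR-411 was at 92.3, 101 and 121 CPM in the tumors and at 128, 151 and 213 CPM in the glands, without overlap (log2 fold change -0.64, edgeR adjusted p = 0.0638). miR-379, the first of the cluster, was at 37.3, 38.6 and 40.3 CPM against 35.3, 42.9 and 65.7 CPM (log2 fold change -0.31, edgeR adjusted p = 0.34). miR-376c, with a log2 fold change of -0.61, passed (edgeR adjusted p = 0.043), but was lost with the replicate block (edgeR adjusted p = 0.0742) and held only without normal replicate 1 when libraries were left out. With replicates 1 and 2 alone 7 of the 28 members passed, no more than the 29.1% of all tested miRNAs lower in tumors there. With the block 14 passed, against 32.9% of all tested miRNAs, among them miR-411 (edgeR adjusted p = 0.0403).

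In the proximal part, where the miRNAs are antisense to Rtl1, 1 of 5 tested members was under-expressed, against 27.4% of all tested miRNAs. It was miR-434 (log2 fold change -0.64, edgeR adjusted p = 0.0368). The most abundant of the region, miR-127, was at 10205, 9816 and 10226 CPM in the tumors and at 9530, 15849 and 23690 CPM in the glands. The tumors were nearly alike while the glands spread widely, and the log2 fold change of -0.70 did not pass (edgeR adjusted p = 0.0792). With the block, miR-127 (-0.60, edgeR adjusted p = 0.0148) and miR-136 (-0.73, edgeR adjusted p = 0.0345) passed too. Of 6 other tested miRNAs of the region, miR-341 was under-expressed (log2 fold change -1.04, edgeR adjusted p = 0.042), and miR-665 had the only value above 0 (0.52, edgeR adjusted p = 0.337). When libraries were left out in turn, the call of miR-434 held only without normal replicate 1, and that of miR-341 only without tumor replicate 3 or normal replicate 1.

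The opposite was seen for a second imprinted cluster. The names miR-297, miR-466, miR-467 and miR-669 belong to a large family of near-identical hairpins, most of them in an intron of Sfmbt2, a gene expressed from the paternal chromosome and best known in the placenta. Of 38 listed names, 11 were at 0 and 12 had too few counts, and of the 15 tested, 14 were over-expressed and 0 under-expressed, against 32.9% and 27.4% of all tested miRNAs. The median log2 fold change was 1.57, with a range from 0.90 to 3.68, and all tumors lay above all glands for 13, as for 35.4% of all tested miRNAs. miR-466b was at 90.3, 78 and 84.7 CPM in the tumors and at 7.84, 5.02 and 9.77 CPM in the glands, 11.2-fold higher (log2 fold change 3.48, SE 0.29, edgeR adjusted p = 0.000126). miR-466c was at 41.2, 35.8 and 31.8 CPM against 5.49, 5.27 and 3.03 CPM, and miR-466e at 18.6, 26.6 and 16.2 CPM against 2.09, 1.51 and 2.02 CPM.

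These levels were low, and each tumor library exceeded each gland several times over for those 3. miR-466a was at 16.7, 17.4 and 10.6 CPM against 1.83, 0.502 and 1.01 CPM, near the limit of detection in the glands (log2 fold change 3.68, SE 0.44, edgeR adjusted p = 0.000593). miR-467a (log2 fold change 1.55) and miR-669a (1.44) stood for the smaller differences. The member that did not pass, miR-467e, had a log2 fold change of 0.90 and passed with the block (edgeR adjusted p = 0.0299) and with replicates 1 and 2 alone (edgeR adjusted p = 0.000816). The whole group took 0.0278% to 0.0334% of the counts in tumors and 0.00561% to 0.00765% in glands. Because the hairpins are nearly identical and counts per name depend on how shared reads were assigned, the 15 names are not 15 separate measurements.

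The miRNAs that mark other cell types were either lower in tumors or did not pass the test, except miR-128. Of the 3 tested muscle miRNAs, miR-1, miR-133a and miR-133b, none passed (log2 fold changes -1.67, -1.36 and -1.91, SE 2.34 to 2.55), and their summed share was 0.0123%, 0.00420% and 1.66% in tumors and 0.0159%, 0.00980% and 4.60% in glands. Normal replicate 3 and tumor replicate 3 held nearly all of their counts, so leaving out normal replicate 3 alone turned the log2 fold changes to 4.998, 5.45 and 4.46. With replicates 1 and 2 alone they were 0.047, -0.69 and -1.54, and miR-133a passed (edgeR adjusted p = 0.936, 0.0304 and 0.129). With the block they were -1.13, -1.01 and -1.87 and all passed (edgeR adjusted p = 0.0197, 0.000204 and 0.000761). Of the other listed muscle miRNAs, miR-206 and miR-499 had too few counts and miR-208b was at 0.

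Among red cell miRNAs, miR-451 was at 985, 1249 and 1459 CPM in the tumors and at 1915, 3952 and 2702 CPM in the glands (log2 fold change -1.21, SE 0.28, edgeR adjusted p = 0.00923). miR-486, which is made in red cells and in muscle, was at 4554, 5505 and 10664 CPM against 6300, 10865 and 22664 CPM, and its log2 fold change of -0.94 did not pass (edgeR adjusted p = 0.138). It passed with the block (-0.85, edgeR adjusted p = 0.000309) and with replicates 1 and 2 alone (-0.77, edgeR adjusted p = 0.0048). miR-144, transcribed with miR-451, had a log2 fold change of -0.53 (edgeR adjusted p = 0.151) and passed with replicates 1 and 2 alone (-0.85, edgeR adjusted p = 0.00375), where all 3 red cell miRNAs did. Of the leukocyte miRNAs, miR-142, found in all blood cell lineages, was at 1532, 1378 and 1518 CPM against 1651, 1602 and 1896 CPM (log2 fold change -0.22, edgeR adjusted p = 0.176), unlike miR-150. miR-223, a defining marker of myeloid cells, was listed at 0 in all 6 libraries. As for miR-322, this is not read as absence from the tissue, nor is the 0 of any other listed miRNA.

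Of the adipocyte-linked miRNAs, miR-378 was at 2753, 2874 and 4920 CPM in the tumors and at 6096, 6828 and 11412 CPM in the glands (log2 fold change -1.21, SE 0.32, edgeR adjusted p = 0.0155), and miR-193 had a log2 fold change of -1.22 (edgeR adjusted p = 0.0095). miR-378 was highest in replicate 3 of both groups, and its call was lost without tumor replicate 1 or 2 (edgeR adjusted p = 0.0529 and 0.056). miR-365 (log2 fold change -0.59) and miR-193b (0.32) did not pass, although miR-365 passed with replicates 1 and 2 alone (-1.0035, edgeR adjusted p = 0.000303). Of the neural list, miR-128 was over-expressed (0.72, edgeR adjusted p = 0.0143), miR-129 was under-expressed and miR-219 had a log2 fold change of -0.10, while the neuronal miR-124 and miR-137 had too few counts. The call of miR-128 was lost without tumor replicate 2 or 3 or normal replicate 2 (edgeR adjusted p = 0.056, 0.0528 and 0.0784). The liver miRNA miR-122 had 1 count over the 3 tumors and 2 over the 3 glands, the pancreatic miR-216b had 7 and 2 and miR-216a 2 and 0, and miR-217 was listed at 0. The part of these cell types in the other differences was not tested.

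The week 10 differences resembled those of the neighbouring stages. In a fit of all 24 libraries, 142 of the 143 miRNAs called at week 10 had a difference of the same sign at week 8, 141 at week 12 and 140 at week 6, without regard to their significance there. Across the 237 miRNAs, which are not independent replicates, the log2 fold changes of week 10 and week 8 had a Pearson r of 0.947 and a Spearman rho of 0.940, those of week 12 gave 0.879 and 0.919, and those of week 6 gave 0.873 and 0.899. Tumors and glands of each week were different mice.

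No departure of week 10 from the other weeks passed the test. The interaction contrast of week 10 with the mean of weeks 6, 8 and 12 gave 0 miRNAs at an edgeR adjusted p-value under 0.05 and 1 at an unadjusted p-value under 0.05. From week 8 to week 10, 0 passed and 0 had an unadjusted p-value under 0.05, and from week 10 to week 12, 0 passed and 5 had one. The smallest adjusted p-values were 0.9996, 0.992 and 0.779. In each contrast, fewer of the 237 tests had an unadjusted p-value under 0.05 than expected if nothing had changed. The contrasts were thus conservative, and their counts of 0 are not evidence that the weeks were alike. Changes small against the spread of 3 libraries per group and week would not have been detected. Where libraries varied, large ones did not pass either, such as that of miR-9 from week 10 to week 12 (3.06, SE 1.79).

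The miRNAs with the lowest p-values between weeks did not pass after adjustment. miR-138 had log2 fold changes of -0.18 at week 8, -0.61 at week 10 and -2.06 at week 12, and the change after week 10 was -1.44 (SE 0.43, edgeR adjusted p = 0.779). miR-203 went from -0.24 at week 10 to -1.90 at week 12 (change -1.66, SE 0.64), and miR-326 from -0.66 to 0.22 (change 0.88, SE 0.30). In the same fit, miR-466b had log2 fold changes of 2.29, 2.95, 3.49 and 3.07 and miR-150 of -0.77, -2.23, -2.64 and -2.55 at weeks 6, 8, 10 and 12. Both were thus furthest from 0 at week 10, but their departures from the other weeks were 0.71 (SE 0.37) and -0.79 (SE 0.42) and did not pass. miR-665 had the only unadjusted p-value under 0.05 against the other weeks, at 1.31 to 3.71 CPM in the week 10 libraries. For miR-669c the value was 0.51 at week 8 and 1.45 at week 10, and for miR-382 it was 0.51 and then -1.13.

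**Figure D5:**
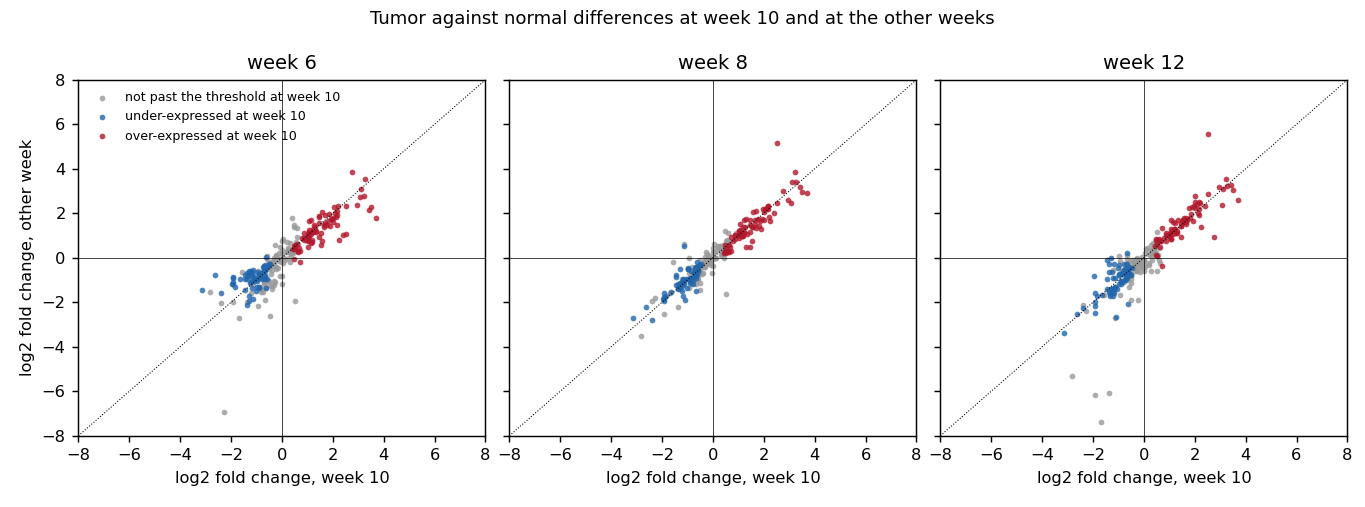
Log2 fold change of PyMT tumors against FVB glands at week 10 (horizontal axes) and at weeks 6, 8 and 12 (vertical axes), 1 point per tested miRNA, coloured by its call at week 10; the dotted line marks equal values. Most called miRNAs lie near the line with the same sign in each week. The grey points furthest below the line are miR-196a at week 6 and the muscle miRNAs and miR-592 at week 12, which vary between libraries.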

How the data were processed

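The 3 PyMT and 3 FVB libraries of week 10 were used, with the other 18 for comparisons between weeks. The authors made TruSeq small RNA libraries, kept reads of 17 to 27 bases after trimming, aligned them with Bowtie, counted reads overlapping a miRBase miRNA by over 50% and deposited these counts per miRNA name without normalization. The labels name mm9 and the methods mm10.

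Differences were tested with edgeR 4.0.16 in R 4.3.3 (TMM, quasi-likelihood test, Benjamini-Hochberg adjustment over 237 miRNAs kept by filterByExpr over all libraries, threshold 0.05) on the 6 libraries, and differences between weeks by contrasts in a fit of all 24. The SE is the log2 fold change divided by the square root of F. Total counts set the limit of detection, and 3 mice per group limit precision. Same-numbered tumor and normal libraries deviated together (correlations 0.487, 0.748 and 0.814 over miRNAs). Tumor 1 with normal 2 (0.582) and tumor 2 with normal 1 (0.586) did so as well. Pairs of replicate 3 with replicate 1 or 2 were at -0.605 to -0.797. Deviations were taken from the mean of each group, so these negative values largely follow from that calculation and add little. The correlations set replicate 3 apart and do not show a pairing by number, which the labels do not state either. The number was used as a block in an alternative. DESeq2 1.42.0 gave other alternatives. The fit of the 6 libraries was tried on simulated counts with fewer changed miRNAs than were called here, and the contrasts between weeks were not.

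The members and lists were chosen with earlier results of these data known. Named are the 10 highest and 10 lowest log2 fold changes among called miRNAs without overlap, the 10 most abundant, up to 4 abundant members per list with any of opposite direction, and the 3 lowest p-values per contrast. miR-18a, miR-141, miR-100, let-7d, miR-615 and others named by list membership or in the closing text were chosen after their values were seen. Positions are from GENCODE vM1, and sequences, where listed, from RefSeq.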

Additional observations from a re-analysis of the deposited data

How the results depend on the processing

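The count of 143 differentially expressed miRNAs was 139 to 144 with DESeq2 size factors (142), library sizes alone (139), the Wald test of DESeq2 (140), no filter (144), a filter on week 10 alone (139) and the 5 most counted miRNAs left out (139), 131 with at least 10 counts in each library, 129 with lane as a covariate, 125 in a single fit of 24 libraries and 108 with the classic exact test of edgeR. It fell beyond 1.5 times with the lane 2 libraries alone (replicates 2 and 3, 89 in all and 37 under-expressed). Requiring 1 log2 unit left 38 under-expressed. Each library left out in turn gave 103 to 144 in all, 61 to 73 over-expressed and 37 to 71 under-expressed. With the replicate block, which kept 141 of the 143, 158 passed. No called miRNA changed sign under any alternative, and the counts of 0 between weeks stayed at 0 in every alternative run for them. DESeq2 size factors and library sizes alone shifted the median log2 fold change by 0.004 and -0.018.

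Changes of sign were limited to miRNAs that did not pass, and their cause was not tested. With replicates 1 and 2 alone, let-7b was at -0.11, miR-1 at 0.047, miR-212 at -0.11, miR-219 at 0.084, miR-24 at -0.033 and miR-540 at 0.26. With at least 10 counts in each library, let-7b was at -0.043, miR-212 at -0.11 and miR-24 at -0.086, and without the 5 most counted miRNAs miR-212 was at -0.045 and miR-24 at -0.019. miR-125a was at 0.046 with the replicate block, 0.041 with lane as a covariate and 0.29 in lane 2 alone, where miR-155 was at -0.034 and miR-205 at -0.0016. miR-212 was at -0.013 with library sizes alone and at -0.0043 in the exact test. Over the fits without a library, log2 fold changes ranged from -0.088 to 0.20 for let-7b, -6.70 to 4.998 for miR-1, -0.31 to 0.34 for miR-125a, -7.55 to 5.45 for miR-133a, -7.94 to 4.46 for miR-133b, -1.04 to 0.28 for miR-149, -0.17 to 0.082 for miR-212, -0.26 to 0.041 for miR-219, -0.036 to 0.073 for miR-24 and -1.05 to 0.046 for miR-540. Depth limits what can be said of miRNAs below the limit of detection in the shallower tumor libraries, and 3 mice per group limit the rest.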

Other observations

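Outside the families and clusters described, 78 further miRNAs were tested, of which 27 were over-expressed and 17 under-expressed, against 32.9% and 27.4% of all tested miRNAs. The most abundant of them, chosen after their values were seen, differed by about 1 log2 unit. miR-191, a widely expressed miRNA, was at 15072, 16802 and 14032 CPM in the tumors and at 8922, 7260 and 6443 CPM in the glands (log2 fold change 1.02, edgeR adjusted p = 0.00171). miR-484 was at 5552, 6541 and 6151 CPM against 2720, 2392 and 2460 CPM (log2 fold change 1.27, edgeR adjusted p = 0.000268), and miR-423 and miR-340 had log2 fold changes of 1.14 and 1.02. On the other side, miR-22 was at 2674, 2911 and 3674 CPM against 6389, 7213 and 7602 CPM (log2 fold change -1.20, edgeR adjusted p = 0.000986). miR-103, encoded in introns of the pantothenate kinase genes Pank2 and Pank3, was at 2746, 3284 and 2319 CPM against 6301, 6493 and 3992 CPM (log2 fold change -1.01, edgeR adjusted p = 0.00784). Its relative miR-107, in an intron of Pank1, had a log2 fold change of -0.53 and did not pass (edgeR adjusted p = 0.0626). It passed under some alternatives, among them the replicate block (edgeR adjusted p = 0.0471).

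A further pair of neighbouring miRNAs was over-expressed together. miR-298 (chr2:174093005-174093086, mm9) was at 413, 274 and 230 CPM in the tumors and at 51.5, 55 and 91.3 CPM in the glands (log2 fold change 2.21, SE 0.34, edgeR adjusted p = 0.00161). miR-296 (chr2:174092548-174092626, mm9), on the same strand, was at 140, 117 and 107 CPM against 29.5, 28.6 and 42.1 CPM (log2 fold change 1.86, SE 0.25, edgeR adjusted p = 0.000955). In both, all tumors were above all glands. miR-674 was at 620, 736 and 670 CPM against 208, 177 and 151 CPM (log2 fold change 1.92, SE 0.18, edgeR adjusted p = 0.000234). miR-592 was close to the limit of detection, with at most 0.981 CPM in a tumor and 6.27 CPM in a gland, and did not pass (edgeR adjusted p = 0.0934). It passed under several alternatives, among them the block (edgeR adjusted p = 0.00173), replicates 1 and 2 alone (edgeR adjusted p = 0.000812) and the fit of all 24 libraries (edgeR adjusted p = 0.0343).

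The miRNAs in which replicate 3 stood apart at week 10 also varied within the groups of other weeks, at levels scaled over all 24 libraries. miR-133a was at 84623, 28036 and 90.8 CPM in the glands of week 6, at 165, 236 and 330.1 CPM at week 8 and at 84156, 2324 and 679 CPM at week 12, in the order of replicates 1, 2 and 3. miR-196a was at 1.89, 2.79 and 663 CPM, at 501, 6.15 and 532 CPM and at 2.92, 599.6 and 2.46 CPM in the same libraries. In the tumors, miR-196a was at 1.00, 0.81 and 3.49 CPM at week 6, 124.5, 2.35 and 165 CPM at week 8 and 1.96, 111 and 1.51 CPM at week 12. At weeks 8 and 12, the tumor and the gland that shared a replicate number were both low or both high in miR-196a, as at week 10. At week 6 this did not hold for replicate 3, high in the gland and low in the tumor. For miR-133a it did not hold in replicate 1 of week 12, at 162 CPM in the tumor and 84156 CPM in the gland. Nor did it hold for miR-133a in replicate 3 of week 6, at 2099 CPM in the tumor and 90.8 CPM in the gland.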
